A study of Ovis aries with 18 samples.

Results

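MAP3K15, SERTAD4 and FAM84A are genes for intracellular proteins that were examined here together in the testis of lambs. They were identified by their Ensembl IDs (ENSOARG00000014746 for MAP3K15, ENSOARG00000012256 for SERTAD4 and ENSOARG00000019413 for FAM84A), 3 of the 29589 gene IDs in the count files. All 3 passed the filter on low counts, which left 18640 IDs. They were chosen because they were lower under the gossypol-rich diet in these same lambs, so their difference in level between the diets is described below and nothing is drawn from its test. What was tested is their covariation within each diet, the difference in covariation between the diets and their relation to library measures. The covariation in control lambs is not independent of the choice of genes. The 5 control lambs above every gossypol lamb in MAP3K15 were the same in FAM84A, and they also lay above every gossypol lamb in SERTAD4. Neither the count files nor the gene table used here pairs these IDs with symbols. The symbols were matched through the labelled points of the study's plot of the diet contrast, and they hold only as far as that matching does. One poly-A library was made from a testicle of each of 18 Santa Inês lambs, all male and aged 60 days. The mothers of 9 lambs received a control diet of corn and soybean, and those of the other 9 a gossypol-rich, cottonseed-based one, in both cases from conception to the day of testicle removal. All ewes had free access to hay and pasture, and all lambs to the same concentrate. The lambs are the replicates, and whether any of them shared a mother is not stated in the study's text.

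Gossypol is a polyphenol of cotton seeds that is toxic to male germ cells. MAP3K15, also called ASK3, is a mitogen-activated protein kinase kinase kinase of the apoptosis signal-regulating kinase family. Kinases of this family phosphorylate MAP kinase kinases that activate the JNK and p38 pathways under stress, and ASK3 is known for its response to osmotic stress. SERTAD4 carries the SERTA domain, which it shares with transcriptional co-regulators that act on E2F-dependent genes and the cell cycle, although the role of SERTAD4 itself is poorly known. FAM84A, now named LRATD1, carries a domain related to lecithin retinol acyltransferase and has been linked to cell shape and motility.

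Libraries of control lambs held 14468612 to 22334428 counts (median 19271048), and those of gossypol lambs 15240624 to 20660132 (median 19037075). Expression is given as CPM, the counts of an ID relative to library size scaled by the trimmed mean of M-values (TMM), and 1 CPM was worth between 14.4 counts in control lamb H39 and 22.9 in control lamb H22. CPM are not divided by gene length, so levels are compared between lambs and never between genes. Control lamb H44 stood apart from the other control libraries. Its 10 most abundant IDs took 4.62% of its counts, against 6.71% to 8.82% in the other 8 control lambs and 4.92% to 7.48% in gossypol lambs. It had a count in 26207 IDs, the most of all lambs, and its TMM factor of 1.14 was the highest of all lambs. The diet differences are therefore also given without this lamb. FATE1, a gene expressed in fetal and adult testis, was present in every library, with a lowest level of 19.5 CPM.

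MAP3K15 averaged 30.9 ± 26.1 CPM (SD, n = 9) under the control diet, where gossypol lambs averaged 6.32 ± 2.55 CPM (SD, n = 9). In control lambs it ran from 5.14 CPM in H44 through a median of 27.0 CPM to 66.8 CPM in H29. In gossypol lambs it ran from 1.94 CPM in H41 through a median of 6.41 CPM to 10.52 CPM in H01. The diets overlapped. Control lambs H06, H20, H22, H29 and H37 lay above every gossypol lamb, while H31, H32, H39 and H44, with 5.14 to 8.71 CPM, lay inside the gossypol range. At least 5 control lambs lay above the gossypol range in 6.36% of all tested IDs, from which nothing is read, since the gene was chosen on this contrast. From these bulk libraries, fewer cells that express a gene and less of its RNA per cell cannot be told apart.

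SERTAD4 had the fewest counts of the 3 genes, between 25 and 388 per lamb. Its mean was 10.0 ± 6.89 CPM (SD, n = 9) under the control diet but 2.84 ± 0.882 CPM (SD, n = 9) under the gossypol-rich one. The control values ran from 2.82 CPM in H44 through a median of 5.94 CPM to 21.8 CPM in H29, and the gossypol values from 1.35 CPM in H41 through a median of 2.59 CPM to 4.60 CPM in H48. Here 7 control lambs exceeded all gossypol lambs, the exceptions being H39 and H44. The 4 highest control lambs, H20, H22, H29 and H37, had at least 11.4 CPM. Control lamb H06, which lay above every gossypol lamb in MAP3K15 too, had only 4.74 CPM of SERTAD4, just above the highest gossypol lamb.

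FAM84A had a mean of 84.3 ± 68.5 CPM (SD, n = 9) under the control diet, compared with 19.0 ± 8.48 CPM (SD, n = 9) under the gossypol-rich one. In the control diet it ran from 20.8 CPM in H44 through a median of 47.6 CPM in H37 to 172 CPM in H29. In the gossypol-rich diet it ran from 8.77 CPM in H08 through a median of 16.1 CPM to 33.9 CPM in H48. The control lambs above every gossypol lamb were H06, H20, H22, H29 and H37, the same 5 as for MAP3K15. They were not alike, since H37 had 47.6 CPM and the other 4 had at least 124 CPM.

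**Figure D1:**
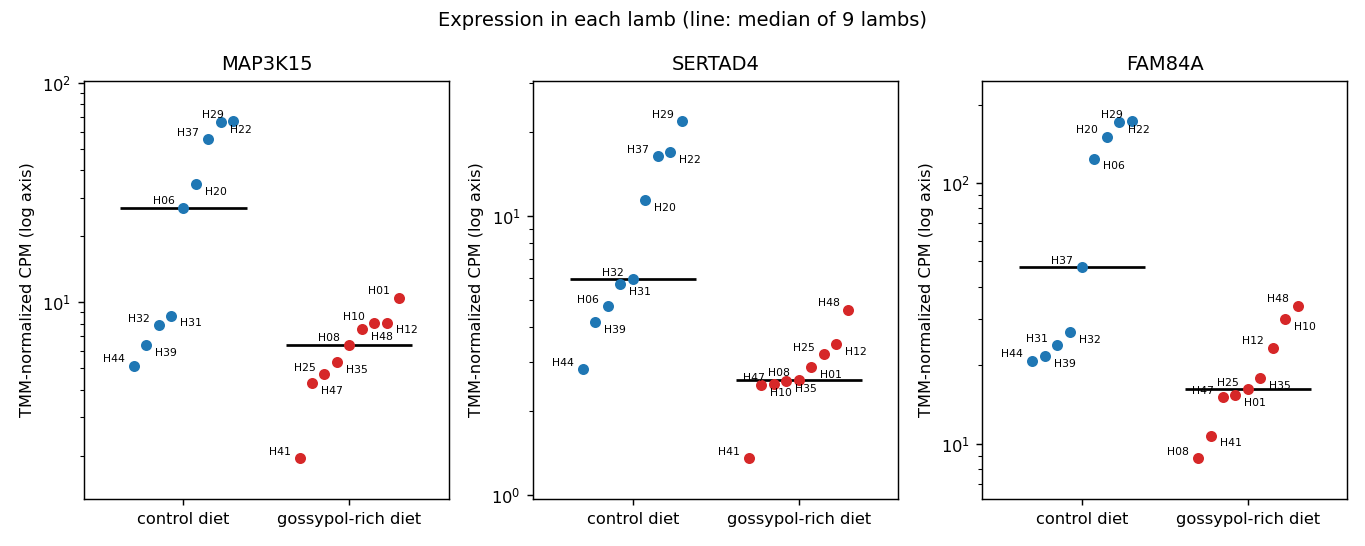
Expression of MAP3K15, SERTAD4 and FAM84A in each lamb, as TMM-normalized CPM on a logarithmic axis, with the control diet in blue, the gossypol-rich diet in red and the median of 9 lambs as a line. In each gene 5 or 7 control lambs exceed all gossypol lambs, and the remaining control lambs lie within the gossypol range.

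The fitted log2 fold changes, gossypol against control, were -2.29 for MAP3K15 (standard error 0.48), -1.81 for SERTAD4 (standard error 0.35) and -2.15 for FAM84A (standard error 0.45). These correspond to levels 4.88-fold, 3.51-fold and 4.43-fold higher in control lambs. All 3 IDs passed a false discovery rate (FDR) of 10% in edgeR's quasi-likelihood fit, as did 1.78% of all tested IDs (1.27% in the direction of lower levels in gossypol lambs), and a log2 fold change of -1 or less was found in 1.81% of them. The genes were picked on this contrast, so nothing is read from these counts. The calls also depended on single lambs: all 3 genes passed again without H01, H12, H31, H32, H39, H44 or H48, but without any one of the other 11 lambs, or in limma-voom, no ID passed. Without control lamb H44 the fold changes were -2.44, -1.95 and -2.29 in the same order of genes, and without gossypol lamb H41 they were -2.17, -1.72 and -2.07. Limma-voom gave values nearer to 0, -1.82, -1.55 and -1.73.

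The 3 genes varied more between control lambs than between gossypol lambs. The SD of log2 CPM was 1.52 in control and 0.70 in gossypol lambs for MAP3K15, 1.03 and 0.46 for SERTAD4, and 1.37 and 0.64 for FAM84A. In control lambs these SDs lay above those of 99.2%, 96.0% and 98.8% of all tested IDs, and in gossypol lambs above those of 82.8%, 55.0% and 77.5%. The larger spread in the control diet was not a trait of the whole transcriptome, in which 43.7% of IDs had a larger SD in control lambs and the median SD was 0.40 in control and 0.43 in gossypol lambs. It was shared with the 11 further lower genes described below, all of which had a larger SD in control lambs, from 0.74 against 0.70 in CYP4F21 to 2.81 against 0.35 in SLC4A5. SLC4A5 averaged only 1.61 CPM in gossypol lambs. All these genes were picked on the diet contrast, so nothing is read from this count. Of the higher genes described below, SMOC2, ERBB3, CDH23 and CACNG4 had a larger SD in gossypol lambs. GFRA3, SLC47A1 and OC90 had a larger SD in control lambs. Counting error was a small part of the spread of MAP3K15, SERTAD4 and FAM84A. The coefficient of variation of MAP3K15 was 84.5% in control lambs, where its mean count alone gives 4.14%. For SERTAD4 in gossypol lambs, the weakest case among MAP3K15, SERTAD4 and FAM84A, these values were 31.1% and 13.6%. The biological coefficient of variation around the diet means was 0.66 for MAP3K15, 0.50 for SERTAD4 and 0.62 for FAM84A, against 0.31, 0.38 and 0.28 along the trend of all IDs at the same levels.

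Within the control diet the lambs kept nearly the same order in the 3 genes. H22 and H29 were among the highest 3 lambs in each gene, and H39 and H44 among the lowest 3. Lambs H31, H32, H39 and H44 filled the lowest 4 places of MAP3K15 and FAM84A, and all 4 were among the lowest 5 of SERTAD4. The exceptions were H06, at the median of MAP3K15 and above the largest gap in FAM84A but among the lowest 3 in SERTAD4, and H37, among the highest 3 in MAP3K15 and SERTAD4 but at the median of FAM84A. In the gossypol-rich diet, H41 and H47 were among the lowest 3 in each gene and H12 among the highest 3, but H01 had the most MAP3K15 and less than the median of FAM84A.

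**Figure D2:**
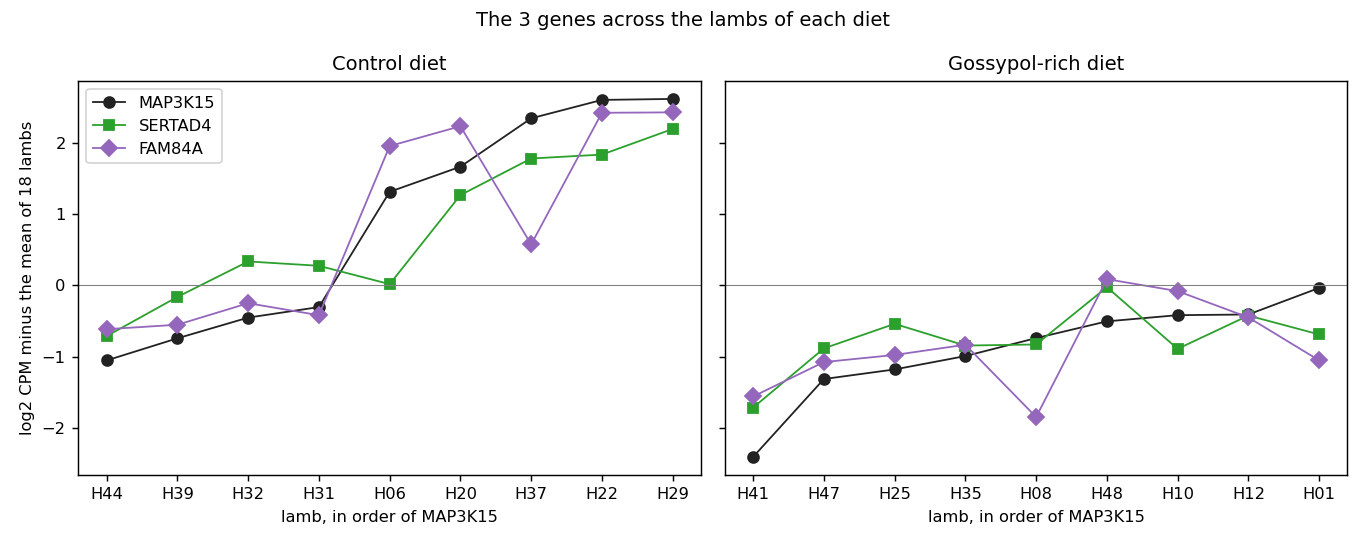
Log2 CPM of each gene minus its mean over 18 lambs, with the lambs of each diet placed in order of MAP3K15. The control lambs run from 4 low to 5 high lambs, with H06 out of line in SERTAD4 and H37 in FAM84A, and the gossypol lambs lie near or below the mean.

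The study compared coexpression between the maternal diets among spermatogenesis-related genes. Here the covariation of MAP3K15, SERTAD4 and FAM84A was examined within each diet. The genes were chosen on the diet contrast, and the same control lambs were high in each. The correlations in control lambs and their p-values are therefore not independent of that choice. MAP3K15 and SERTAD4 were correlated in control lambs (Pearson's r = 0.909, 2-sided exact permutation p = 0.00335, or 0.0201 after Benjamini-Hochberg adjustment over 6 relations, n = 9). Spearman's rho was 0.933 (exact permutation p = 7.5e-04, adjusted 0.00225). In gossypol lambs r was 0.735 (exact permutation p = 0.0386, adjusted 0.0589), and rho was 0.5 (exact permutation p = 0.178, adjusted 0.230). The value in gossypol lambs rested on H41, the lowest lamb in both genes, without which r was 0.270. H41 also stood apart over its whole library. Between its counts and those of each other gossypol lamb, chi-square per degree of freedom was 104 to 179. For every other gossypol lamb the closest gossypol library was at 59.03 or less. In control lambs r stayed between 0.881 and 0.979 when each lamb was left out in turn.

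MAP3K15 and FAM84A were correlated in control lambs as well, with r = 0.879 (exact permutation p = 0.0104, adjusted 0.0311) and rho = 0.933 (exact permutation p = 7.5e-04, adjusted 0.00225). In gossypol lambs r was 0.505 (exact permutation p = 0.165, adjusted 0.165) and rho was 0.483 (exact permutation p = 0.194, adjusted 0.230). In gossypol lambs r ran from 0.324 without H41 to 0.678 without H08. Leaving out H37 raised the control value to 0.975. Leaving out H22 or H29 left r at 0.853 or 0.852 with an adjusted exact permutation p of 0.0504 or 0.0507. On linear CPM the control value was 0.787 (adjusted exact permutation p = 0.0655). The call on r thus depended on these lambs and on the scale.

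For SERTAD4 and FAM84A the linear correlation did not pass the adjusted threshold in either diet. It was 0.714 in control lambs (exact permutation p = 0.0393, adjusted 0.0589) and 0.627 in gossypol lambs (exact permutation p = 0.0664, adjusted 0.0797). The rank correlation in control lambs was 0.867 (exact permutation p = 0.00451, adjusted 0.00902), while it was 0.450 in gossypol lambs (exact permutation p = 0.230, adjusted 0.230). Lambs H06 and H37, the exceptions named above, lowered r here. It was 0.864 without H06 (adjusted exact permutation p = 0.0224) and 0.803 without H37 (adjusted exact permutation p = 0.0485). In gossypol lambs r was 0.729 without H08 and 0.767 without H10, each with an adjusted exact permutation p of 0.0471.

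**Figure D3:**
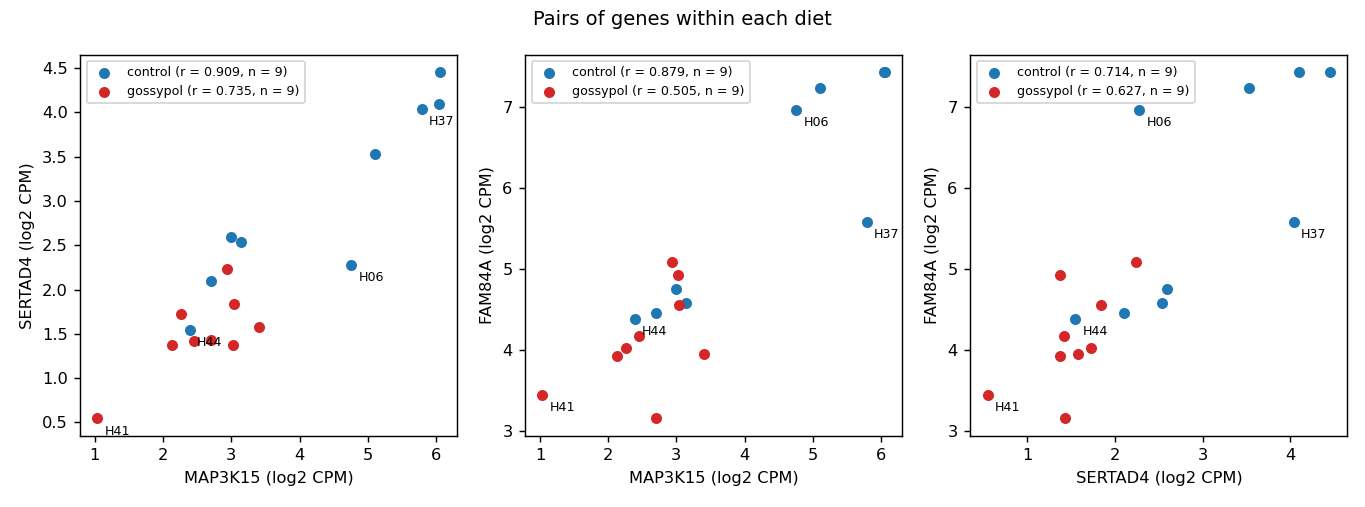
Log2 CPM of each pair of genes, 1 point per lamb, with control lambs in blue and gossypol lambs in red and Pearson's r within each diet in the key. Control lambs are spread along the diagonal, H06 and H37 lie off it, and H41 stands alone at the low end of the gossypol lambs for MAP3K15 and SERTAD4.

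The control lambs did not fill the range evenly. In MAP3K15 the largest gap between neighbouring lambs was 1.62 on the log2 scale, 44.1% of the range, with 5 lambs above it and 4 below. The largest gap took 45.4% of the range in FAM84A and 32.03% in SERTAD4, each with 4 lambs above and 5 below. No gap passed the limit of 50% set for calling lambs separate clusters. However, the correlations in control lambs span these gaps, and neither side held the 6 lambs needed for a correlation of its own. Apart from H44, the whole libraries divided as MAP3K15 did. Chi-square per degree of freedom between the counts of 2 libraries was 17.7 to 52.0 among H06, H20, H22, H29 and H37. It was 20.9 to 23.3 among H31, H32 and H39, and 58.3 to 96.9 between these and H44. Between the sides it was 71.0 to 204, a range that holds the 96.9 between H31 and H44. What divided the libraries was not tested. Without the 2 lambs farthest from the median of the first gene, r in control lambs was 0.842 for MAP3K15 and SERTAD4, 0.805 for MAP3K15 and FAM84A and 0.489 for SERTAD4 and FAM84A. With these 7 lambs none of the pairs passed the adjusted threshold (adjusted exact permutation p = 0.0589 for each of the first pairs). The relation of SERTAD4 and FAM84A rested on H22 and H29. In gossypol lambs the corresponding values were 0.392, 0.558 and 0.162. With the lambs chosen by the second gene of each pair instead, r was 0.846, 0.794 and 0.489 in control lambs and 0.219, 0.405 and 0.607 in gossypol lambs, so that the gossypol values depended on which lambs were left out.

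The correlations were larger in control than in gossypol lambs in all 3 pairs, by 0.174 for MAP3K15 and SERTAD4, 0.374 for MAP3K15 and FAM84A and 0.087 for SERTAD4 and FAM84A. None of these differences passed the threshold when lambs were reassigned between the groups. A 2-sided permutation test over the 48620 assignments of the lambs to groups of 9, on values standardized within each diet, gave p = 0.353, 0.208 and 0.772, and 0.530, 0.530 and 0.772 after adjustment over 3 pairs. By Spearman's rho the differences were 0.433, 0.45 and 0.417 (adjusted permutation p = 0.180, 0.180 and 0.284). On linear CPM they were 0.414, 0.332 and 0.019 (adjusted permutation p = 0.167, 0.528 and 0.954). None of this shows that the diets were alike, and the size of difference that the test could detect was not examined.

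**Figure D4:**
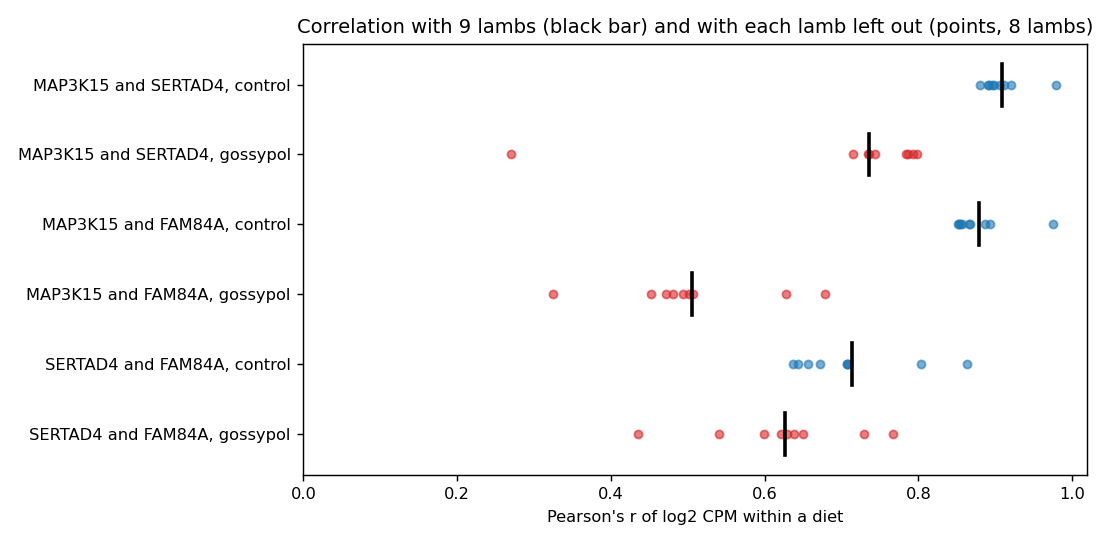
Pearson's r of each pair of genes within each diet with all 9 lambs (black bar) and with each lamb left out (points). The lone low point for MAP3K15 and SERTAD4 in gossypol lambs, at 0.270, is the value without H41.

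High correlations with these genes were common in the control lambs. Of the other 17920 distinct IDs, 18.2% had an r over 0.7 with MAP3K15 in control lambs and 3.62% in gossypol lambs. For SERTAD4 these shares were 13.0% and 9.11%, and for FAM84A they were 17.2% and 1.98%. In control lambs the correlation of MAP3K15 with SERTAD4 was higher than that of MAP3K15 with 95.9% of IDs, that of MAP3K15 with FAM84A was higher than with 93.5%, and that of SERTAD4 with FAM84A was higher than that of SERTAD4 with 87.8%. In gossypol lambs these shares were 97.5%, 86.6% and 86.7%. Counted from the other gene of each pair, they were 99.2%, 94.9% and 83.6% in control lambs and 92.8%, 88.8% and 95.4% in gossypol lambs, so that the standing of a pair in the diets depended on the gene it was counted from.

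No relation of library depth or the number of detected IDs to the 3 genes within a diet passed the threshold after adjustment over 12 relations. With few lambs in each diet, this does not show that they were unrelated. With the total count, r ran from 0.382 to 0.538 in control lambs and from 0.019 to 0.303 in gossypol lambs. With the number of IDs that had a count, r was negative in both diets, from -0.587 to -0.482 in control and from -0.499 to -0.434 in gossypol lambs. The smallest exact permutation p was 0.0841 (SERTAD4 and detected IDs in control lambs, adjusted 0.370), and Spearman's rho gave adjusted exact permutation p-values of 0.582 or more. In control lambs the negative values with detected IDs rested on H29 and H44, without which r was between 0.072 and 0.237. In gossypol lambs they became larger without H12 and H47, between -0.771 and -0.744.

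The members were next set beside 18 further genes that had been picked on the same diet contrast, 11 lower and 7 higher in gossypol lambs. Their directions come from these same lambs and are not independent evidence, and their symbols were matched in the same way. Diet means were removed first, and r was taken over 18 lambs. Values were not scaled within each diet, so control lambs, in which the members had the larger SDs, weighed more in this r. The lower genes ran with MAP3K15, SERTAD4 and FAM84A: all 11 had a positive r with each of them, with a median of 0.836 for MAP3K15, 0.689 for SERTAD4 and 0.839 for FAM84A, where the median over all IDs was -0.05, -0.06 and -0.03. An r over 0.7 was found in 9, 5 and 11 of them, and in 6.51%, 6.12% and 6.38% of all IDs.

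Among these genes, ADAM11, a disintegrin family member of the cell surface, had the highest r with MAP3K15, at 0.875. LRRC8B, a subunit of the volume-regulated anion channel, had an r of 0.867 with MAP3K15, 0.765 with SERTAD4 and 0.859 with FAM84A. CYP4F21, a cytochrome P450 whose ID has the same counts as related IDs, was the closest of them to SERTAD4, at 0.785. KIAA1210, an acrosomal protein gene, and SLC4A5, a sodium bicarbonate cotransporter, were the closest to FAM84A, with an r of 0.931 and 0.913, and both were among its 20 most similar IDs. The cystatin CST9L had an r of 0.858 with MAP3K15, 0.742 with SERTAD4 and 0.802 with FAM84A. MAGEB18, a cancer-testis antigen, had 0.836, 0.660 and 0.829 in the same order. For FATE1, the values were 0.761, 0.689 and 0.839, and for PRND, which encodes the prion-like protein doppel, 0.6998, 0.537 and 0.830. VSIG1, an adhesion molecule of the immunoglobulin superfamily, was the least similar, with 0.575, 0.356 and 0.737. The cancer-testis antigen MAGEA10 had 0.702, 0.514 and 0.842.

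These genes were also compared with the 3 members within the single diets. In control lambs all 11 had a positive r with each of the 3 genes, with medians of 0.918 for MAP3K15, 0.768 for SERTAD4 and 0.949 for FAM84A. In gossypol lambs 9 of 11 did, with medians of 0.417, 0.432 and 0.503. Of all IDs, 47.01%, 46.3% and 48.1% had a positive r in control lambs and 47.9%, 48.7% and 49.6% in gossypol lambs. The 2 with a negative r there were VSIG1 and MAGEA10, and MAGEA10 had -0.566 with MAP3K15, -0.744 with SERTAD4 and -0.420 with FAM84A. ADAM11 and CYP4F21 kept high values in gossypol lambs, at 0.744 and 0.735 with MAP3K15. Whether these values differ between the diets was not tested.

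The higher genes ran against the 3 genes. With diet means removed, 6 of 7 had a negative r with MAP3K15 and SERTAD4 and 7 of 7 with FAM84A, with medians of -0.678, -0.588 and -0.563. Of all IDs, 46.99%, 46.3% and 48.2% had a positive r with MAP3K15, SERTAD4 and FAM84A. An r under -0.7 was found in 3, 2 and 0 of the 7 genes and in 5.91%, 4.84% and 6.29% of all IDs. CDH23, a cadherin, had the lowest r with MAP3K15, at -0.755. GFRA3, a receptor of the GDNF family, had -0.736 with MAP3K15 and with SERTAD4, and SLC47A1, an efflux transporter of organic cations, had -0.703 and -0.722. For CACNG4, an auxiliary subunit of calcium channels, r was -0.678, -0.498 and -0.660 with MAP3K15, SERTAD4 and FAM84A. The receptor kinase ERBB3 had -0.619, -0.385 and -0.526, and the matrix protein gene SMOC2 had -0.563, -0.615 and -0.376. OC90, which encodes otoconin, had values near 0 with MAP3K15 and SERTAD4, at 0.027 and 0.068, and -0.241 with FAM84A. It was low, with 3 to 12 counts per control lamb.

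**Figure D5:**
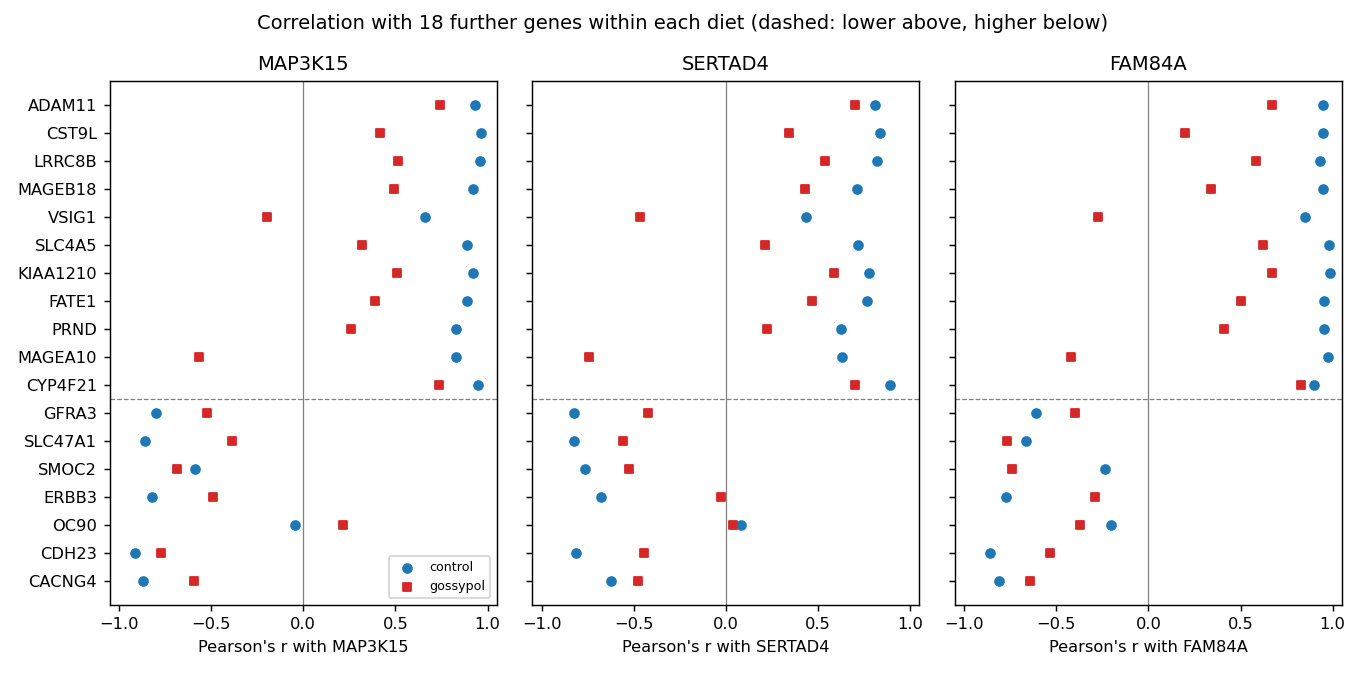
Pearson's r of MAP3K15, SERTAD4 and FAM84A with 18 further genes within the control diet (blue circles) and within the gossypol-rich diet (red squares), with the 11 genes lower in gossypol lambs above the dashed line and the 7 higher genes below. In control lambs the 11 lower genes all lie to the right of 0, and in gossypol lambs VSIG1 and MAGEA10 lie to the left.

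The same control lambs were high in the lower genes. Of the 11, 8 had exactly the 5 lambs H06, H20, H22, H29 and H37 above every gossypol lamb, as MAP3K15 and FAM84A did. CYP4F21 had these 5 and 3 more, and VSIG1 and MAGEA10 had 4 of them, without H37. For ADAM11, the control lambs ran from 33.6 to 1539 CPM and the gossypol lambs from 16.6 to 214 CPM. Of all tested IDs, 3.76% had exactly these 5 lambs above the gossypol range and 4.88% held all 5. The 11 genes were picked for being lower in gossypol lambs, so nothing is read from their count.

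Over all 17919 other distinct IDs, with diet means removed, only 80 had a higher r with MAP3K15 than SERTAD4 did, at 0.880, and 18 had a higher r with SERTAD4 than MAP3K15 did. In this r, too, control lambs weighed more than gossypol lambs. FAM84A was less close, with an r of 0.813 with MAP3K15, which 341 IDs exceeded, and 0.699 with SERTAD4, which 1108 exceeded. An r over 0.7 with all 3 genes was found in 585 IDs (3.26%). Against the mean standardized profile of the 3 genes, the most similar IDs were ENSOARG00000002018, at 0.965, and ENSOARG00000003926, at 0.962. The control lambs averaged 85.4 ± 40.9 CPM of ENSOARG00000002018 and the gossypol lambs 49.3 ± 10.8 CPM, and for ENSOARG00000003926 these means were 78.8 ± 59.6 and 21.8 ± 9.03 CPM (SD, n = 9 each). The most opposite IDs were ENSOARG00000007280, at -0.940, with means of 19.0 ± 11.96 CPM under the control diet and 42.6 ± 12.01 CPM under the other, and the assembled locus XLOC_018718, also at -0.940, with 1.97 ± 2.12 and 3.44 ± 2.75 CPM (SD, n = 9 each). The files pair none of these IDs with a symbol.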

How the data were processed

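RNA was extracted from 1 testicle of each of 18 lambs, and 1 poly-A library per lamb was sequenced. The authors trimmed the reads with Trim Galore 0.4.4, aligned them as single-end reads to Oar_v3.1 with TopHat2 2.1.1, merged Cufflinks 2.2.1 transcript models with the annotation, and assigned reads to gene IDs with HTSeq. The deposited values are raw counts, with 1 file per lamb. A strand setting of the counting is not given in the sources used here, so overlapping antisense genes could share reads. No other ID had the same counts as MAP3K15, SERTAD4 or FAM84A. Diets come from the labels, and no 2 libraries of a diet had counts within sampling noise (lowest chi-square per degree of freedom 12.1).

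The diet fit used edgeR 4.0.16 in R 4.3.3. Low IDs were dropped with filterByExpr (minimum count 10 and total 15), and libraries were scaled by TMM and fitted with the quasi-likelihood method (glmQLFit, glmQLFTest) without covariates, with Benjamini-Hochberg adjustment over 18640 IDs. The standard error is |log2 fold change| over the root of the F statistic. Log2 CPM used a prior count of 2. Correlations within a diet were tested over all pairings of the 9 lambs. Alternatives were other scalings, filters, prior counts and tests (DESeq2 1.42.0, limma-voom of limma 3.58.1), rank and linear-scale correlations, and each lamb left out. The fits and the correlation tests were tested on simulated data.

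Members and lists were chosen with earlier results of these data known. The genes named are the 3 members, 18 further genes whose IDs were already paired with symbols (for OC90 less certainly), and the 2 IDs most and least like the members. Symbols were matched to IDs through labelled points of the study's plot of the diet contrast and its list of IDs, since 0 IDs matched the RefSeq table of sheep genes used here. That list also holds the study's own fold changes and p-values, which were not used as results. Lists of stress kinase, SERTA family and testis cell type marker genes were therefore not used here, and the tissue label was not checked against cell type markers. Sequences of the genes were not used here.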

Additional observations from a re-analysis of the deposited data

Results flagged for a closer look

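Each of 14 sets of 9 lambs, namely log2 CPM of MAP3K15, SERTAD4 and FAM84A and 4 library measures in each diet, was examined for a lamb far from the rest by Dixon's criterion, by which chance flags about 1 in 20. A single value stood out. The 10 most abundant IDs of control lamb H44 took 4.62% of its counts, where the next lowest control lamb had 6.71%. H44 was also the lowest control lamb in MAP3K15, SERTAD4 and FAM84A, and the part of its library composition in those levels was not tested.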

How the results depend on the processing

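The diet fold changes kept their sign and moved by less than the SD between lambs under every alternative run. With each lamb left out, they ran from -2.44 to -2.06 for MAP3K15, from -1.95 to -1.59 for SERTAD4 and from -2.30 to -1.95 for FAM84A. The number of IDs at an FDR of 10%, 332 in the quasi-likelihood fit, was 52 with scaling by library size only, 1732 in edgeR's exact test, 1851 in its likelihood ratio test, 2206 in DESeq2 and 0 in limma-voom (4360 at an unadjusted p under 0.05, against 4327 in the quasi-likelihood fit). With each lamb left out it ran from 0 to 3591. It was 0 without H06, H08, H10, H20, H22, H25, H29, H35, H37, H41 or H47 (3095 to 3931 at an unadjusted p under 0.05), and 987, 848, 1310, 1600, 2124, 3591 and 2963 without H01, H12, H31, H32, H39, H44 and H48. The cause was not tested.

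Correlation of MAP3K15 and FAM84A in control lambs lost its call on linear CPM (0.787, adjusted exact permutation p = 0.0655) and without the 2 farthest lambs (0.805, adjusted p = 0.0589 by the same test), which also ended that of MAP3K15 and SERTAD4 (0.842, adjusted exact permutation p = 0.0589), in both cases with 7 lambs. SERTAD4 and FAM84A gained it by rank (0.867). With each lamb left out, r in control lambs ran from 0.852 to 0.975 for MAP3K15 and FAM84A and from 0.636 to 0.864 for SERTAD4 and FAM84A, and in gossypol lambs from 0.436 to 0.767 for SERTAD4 and FAM84A. The differences between diets passed in none of the 5 alternatives run. Of the 20 most similar IDs, rank correlation shared 6 for MAP3K15, 6 for SERTAD4 and 1 for FAM84A, and leaving the diet means in shared 12 for SERTAD4. No paired analysis was possible because the diets share no lamb number. Among MAP3K15, SERTAD4 and FAM84A, counting error weighs most in SERTAD4, with as few as 25 counts in a lamb. In gossypol lambs it is larger still in OC90, VSIG1, SLC4A5 and MAGEB18, with as few as 11, 14, 20 and 16.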

Other observations

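The control lambs that lay above the gossypol range in MAP3K15 and FAM84A were the same in 700 IDs, 3.76% of those tested. Of the 901 IDs in which exactly 5 control lambs lay above every gossypol lamb, 700 had the same 5 lambs, H06, H20, H22, H29 and H37. These IDs share all their libraries, so they are not independent of each other.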
